A study of Mus musculus with 8 samples.

Results

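The 8 genes described here, Fos, Fosb, Fosl1, Fosl2, Jun, Junb, Jund and Atf3, encode subunits of the transcription factor AP-1. They were chosen by symbol from the 32285 genes of a single-cell RNA-seq study of mouse periosteum, and each symbol had 1 row in the count matrices. Periosteal cells came from male C57BL/6J mice aged 16 weeks that were kept on normal diet (ND) chow or on a high-fat diet (HFD), and the labels name no difference in genotype or drug. The labels name 4 replicates per diet, but each diet was deposited as 1 matrix with no map from cell barcodes to replicates. Each diet is thus 1 library with no replicates to compare. No test of the diet is therefore possible and none is given. Diet, library and the handling of the bones on the way to the library cannot be told apart, and every interval covers counting error only.

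AP-1 is a dimer of basic leucine zipper proteins. The Fos proteins need a Jun partner to bind DNA, whereas Jun proteins also pair with each other and with Atf3. Fos, Fosb, Jun, Junb and Atf3 are immediate-early genes, transcribed within minutes of growth factors, cytokines, mechanical load or stress, whereas Jund is present in many resting cells. In bone, Fosl1 and Fosl2 act in osteoblasts and Fos is required for osteoclasts to form. Immediate-early genes are also known to be induced while cells are released from tissue by warm enzyme digestion, the method by which the cells of both libraries were obtained.

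The 250 bases before the RefSeq start (GRCm38.p6) are printed for Fos and for the JUN genes Jun, Junb and Jund. A link between these sequences and the ratios between diets was not tested. Capitals mark every match, on either strand, to TGACG (part of a cAMP response element), TGACATCA, CCAAT and TATAAA. The windows lie at chr12:85473640-85473889 on the plus strand (Fos), chr4:95052223-95052472 on the minus strand (Jun), chr8:84978749-84978998 on the minus strand (Junb) and chr8:70697489-70697738 on the plus strand (Jund). None of the 4 windows holds an exon of the GENCODE vM21 annotation, in which the gene Jund itself spans chr8:70698949-70700616, downstream of the RefSeq start. The Jun window lies within Junos, a gene annotated on the opposite strand.
Fos: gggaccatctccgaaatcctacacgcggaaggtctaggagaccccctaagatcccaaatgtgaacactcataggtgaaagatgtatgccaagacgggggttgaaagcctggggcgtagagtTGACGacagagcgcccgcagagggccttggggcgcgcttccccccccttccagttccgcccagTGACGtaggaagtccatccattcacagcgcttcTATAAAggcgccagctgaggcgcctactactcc
Jun: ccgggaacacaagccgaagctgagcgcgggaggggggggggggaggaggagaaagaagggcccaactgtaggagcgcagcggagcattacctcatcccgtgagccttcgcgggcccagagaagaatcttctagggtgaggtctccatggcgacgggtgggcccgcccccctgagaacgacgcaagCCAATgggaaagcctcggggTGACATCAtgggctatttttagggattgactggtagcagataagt
Junb: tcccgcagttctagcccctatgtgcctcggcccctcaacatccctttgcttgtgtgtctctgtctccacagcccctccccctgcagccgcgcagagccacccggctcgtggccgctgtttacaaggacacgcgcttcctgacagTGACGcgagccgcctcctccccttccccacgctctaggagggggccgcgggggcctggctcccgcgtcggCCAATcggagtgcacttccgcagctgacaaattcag
Jund: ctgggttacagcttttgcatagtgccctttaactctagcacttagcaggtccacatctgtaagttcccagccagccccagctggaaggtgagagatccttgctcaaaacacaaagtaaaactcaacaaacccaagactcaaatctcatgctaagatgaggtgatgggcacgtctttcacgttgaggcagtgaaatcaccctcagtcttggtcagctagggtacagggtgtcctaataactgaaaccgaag
Fos held TATAAA at 33 to 28 bases before the start and TGACG at 129 to 125 and 66 to 62 bases before it. Jun held TGACATCA at 45 to 38 and CCAAT at 65 to 61 bases before the start. Junb held TGACG at 106 to 102 and CCAAT at 36 to 32 bases before the start, and no capitals stand in the Jund window. Over 32851 upstream windows of this length, TGACG was in 17.8%, TGACATCA in 2.93%, CCAAT in 33.8% and TATAAA in 12.4%. The full elements TGACTCA (in 4.46% of windows) and TGACGTCA (in 1.55%) were in none of the 7 windows found for the members. No window was found for Fosl1. Among the windows not printed, that of Fosl2 lies within an annotated exon of Fosl2, and those of Fosb and Atf3 overlap an exon of their own gene.

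After filtering, 6029 ND and 6224 HFD cells remained of 6314 and 6636 barcodes, with a median of 4610 and 4823.5 unique molecular identifiers (UMIs, the counted transcripts) per cell. The libraries held 48558889 and 49940976 UMIs, and 14 barcodes of kept cells occurred in both. Clustering, from which the 8 genes, other early-response genes and heat-shock genes were left out, gave 26 clusters, of which 2 stayed unnamed because markers of different classes scored alike and the rest fell into 17 classes. Names ending in "-like" were rebuilt here. Mature neutrophil-like cells made up 27.8% of ND and 25.2% of HFD cells, and mesenchymal-like cells, the stroma of the periosteum, 6.78% and 10.7%. Levels are UMIs of a gene per 1000000 UMIs of the class (UPM) with exact 95% Poisson intervals. Differences between diets are log2 ratios of HFD over ND with exact 95% intervals, and a ratio is counted as lower or higher from 1.5-fold on, among genes with at least 20 UMIs in the class over both libraries. In such sums, fewer expressing cells and less RNA per cell cannot be told apart, and values per cell are therefore given as well.

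The AP-1 genes were lower in the HFD library in most cell classes. Of 136 combinations of gene and class, 124 had at least 20 UMIs, and 103 of these had a ratio below 0. By 1.5-fold, 52 of the 124 were lower and 2 higher in HFD, whereas over all genes in the same classes 8.41% were lower and 7.57% higher. Fos was lower in 12, Jun in 11, Atf3 in 11, Fosb in 7, Junb in 5 and Jund in 4 of 17 classes. Fosl2 was lower in 2 of 15 classes and Fosl1 in 0 of 7. The median ratio over classes was -1.04 for Jun, -0.82 for Atf3, -0.78 for Fos, -0.45 for Fosb, -0.33 for Junb, -0.32 for Jund, -0.11 for Fosl2 and -0.01 for Fosl1. The median over all genes lay between -0.07 and 0.07 in the 17 classes. With coarser clusters (resolution 0.25), 33 of 97 combinations were lower.

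**Figure D1:**
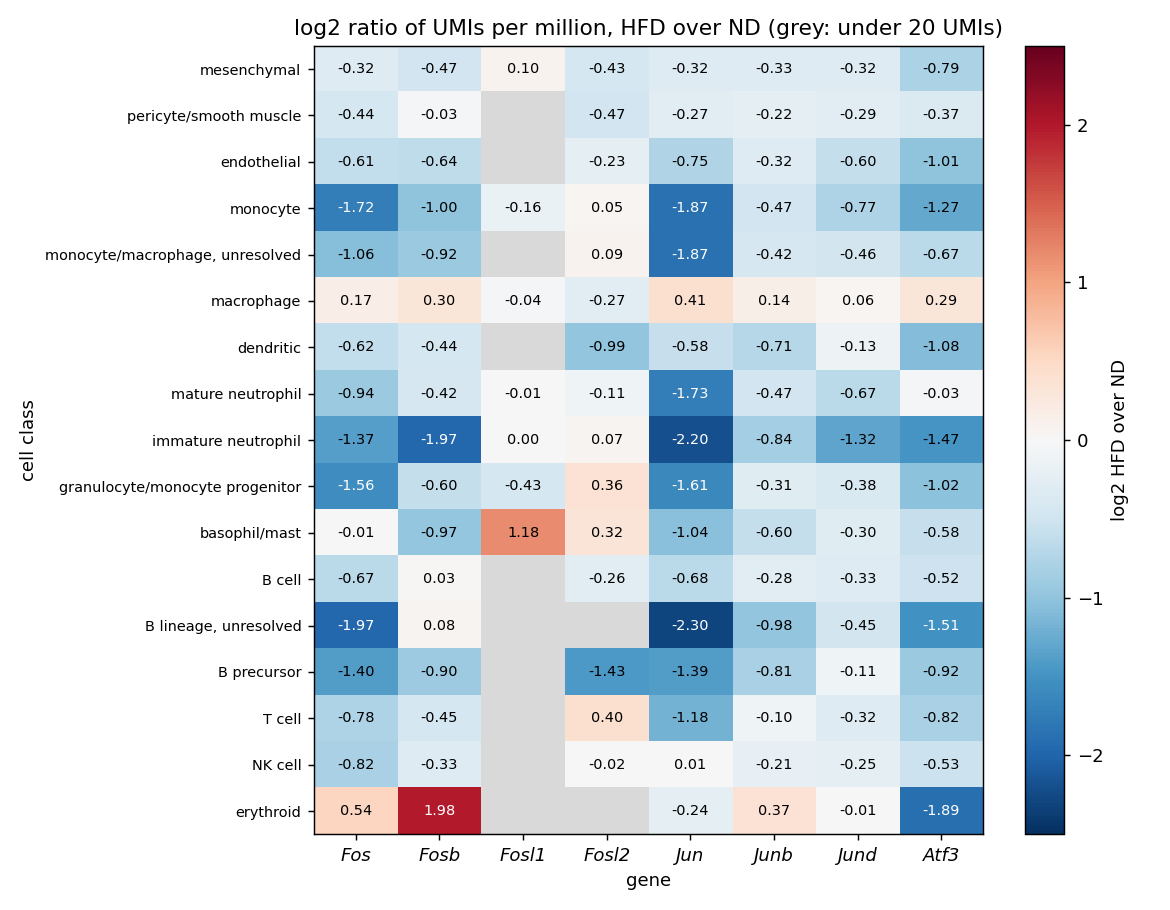
Log2 ratio of UPM, HFD over ND, for each AP-1 gene (columns) in each cell class (rows), blue where HFD was lower and red where it was higher, grey with fewer than 20 UMIs. The Jun column reaches -2.30 in the unresolved B lineage, and the Fosl1 column is grey in all but 7 classes. The macrophage and pericyte/smooth muscle rows hold no ratio past 1.5-fold.

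Fos, whose protein carries a strong transactivation domain, was highest in stromal and vascular cells. In ND it was at 6701 UPM in pericyte/smooth muscle-like and 6668 UPM in mesenchymal-like cells, whose intervals overlapped, and at 5800 UPM in endothelial-like cells. The pericyte/smooth muscle-like class held only 30 ND and 59 HFD cells, against 409 and 667 mesenchymal-like cells. Among blood lineages, the unresolved monocyte/macrophage cluster had 2329 UPM, monocyte-like cells 1741 UPM, mature neutrophil-like cells 868 UPM and B cell-like cells 681 UPM. The level in erythroid-like cells was 35.7 UPM (21.8 to 55.2), from 20 UMIs. The stromal and vascular classes thus stood above every blood class in Fos.

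In monocyte-like cells Fos was at 1741 UPM (1702 to 1780) in ND and 527 UPM (506 to 549) in HFD, a log2 ratio of -1.72 (-1.79 to -1.66). Immature neutrophil-like cells had 471 UPM in ND and 182 UPM in HFD, a log2 ratio of -1.37 (-1.45 to -1.29). Mature neutrophil-like cells had 868 UPM in ND and 454 UPM in HFD, a log2 ratio of -0.94 (-1.004 to -0.87). In these 3 myeloid classes the intervals of both diets lay apart. The lowest Fos ratio, -1.97 (-2.40 to -1.57), was in the unresolved B lineage, from 194 UMIs in ND and 68 in HFD. Against these 3 myeloid classes and the unresolved B lineage, the difference was smaller in mesenchymal-like cells, at 5331 UPM in HFD, a log2 ratio of -0.32 (-0.34 to -0.30). It was also smaller in endothelial-like cells, at 3810 UPM in HFD, a log2 ratio of -0.61 (-0.67 to -0.54). Dendritic-like (-0.62) and B cell-like cells (-0.67) had Fos ratios near that of endothelial-like cells. Basophil/mast-like cells, with 905 UPM in ND and 897 UPM in HFD, did not differ beyond counting error.

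Fosb, a close relative of Fos, was also highest in the stroma. It was at 1562 UPM in pericyte/smooth muscle-like, 1366 UPM in mesenchymal-like and 1026 UPM in basophil/mast-like cells of ND. Immature neutrophil-like cells had its lowest ratio, with 90.6 UPM (84.7 to 96.7) in ND and 23.1 UPM (20.4 to 26.1) in HFD, a log2 ratio of -1.97 (-2.18 to -1.77). The ratio was -1.001 (-1.14 to -0.86) in monocyte-like and -0.97 (-1.19 to -0.76) in basophil/mast-like cells. In B cell-like cells Fosb was at 168 UPM in ND and 172 UPM in HFD, and in pericyte/smooth muscle-like cells at 1562 UPM in ND and 1528 UPM in HFD, and both intervals of the ratio held 0. Erythroid-like cells were one of the 2 combinations higher in HFD, on 5 UMIs in ND and 18 in HFD, a log2 ratio of 1.98 (0.59 to 3.86), which was -0.16 as a mean over cells. The 8 mesenchymal markers were at 9 UMIs (16.1 UPM) in ND and 836 UMIs (1748 UPM) in HFD in the same erythroid-like cells, and their part in this ratio was not tested.

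Fosl1, whose protein lacks the transactivation domain of Fos, was sparse and was found mainly in granulocytes. Immature neutrophil-like cells had 66.1 UPM (61.1 to 71.3) in ND and 66.2 UPM (61.5 to 71.2) in HFD, a log2 ratio of 0.00 (-0.15 to 0.16). Mature neutrophil-like cells had 41.7 UPM in ND and 41.5 UPM in HFD, a log2 ratio of -0.01 (-0.26 to 0.25). These are the neutrophil classes in which Fos and Jun were lower in HFD. Within the mature neutrophil-like class the Fosl1 ratio differed by cluster. It was -0.67 (-1.14 to -0.21) in the cluster led by Retnlg and Ccl6, on 105 and 65 UMIs. In that led by Cstdc4 and Stfa2l1 it was 0.24 (-0.09 to 0.58), and in that led by Acod1 and Il1b 0.00, on 17 and 13 UMIs. Basophil/mast-like cells were the other combination higher in HFD, with 19 UMIs (40.2 UPM) in ND and 51 UMIs (92.8 UPM) in HFD, a log2 ratio of 1.18 (0.42 to 2.05). Mesenchymal-like cells, in which Fosl1 is known to act, had 7.75 UPM in ND and 8.32 UPM in HFD.

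Fosl2, the other member without that domain, was highest in mature neutrophil-like cells, at 515 UPM (498 to 533) in ND and 477 UPM (459.7 to 495) in HFD, a log2 ratio of -0.11 (-0.18 to -0.04). Pericyte/smooth muscle-like cells followed with 396 UPM and NK cell-like cells with 250.3 UPM in ND, while B cell-like cells had 11.2 UPM. In monocyte-like cells, where the ratio of Fos was -1.72, Fosl2 was at 240.2 UPM in ND and 249 UPM in HFD, a log2 ratio of 0.05 (-0.07 to 0.17). It was higher in HFD, by less than 1.5-fold, in T cell-like cells, at 157 UPM in ND and 207 UPM in HFD, and in granulocyte/monocyte progenitor-like cells, at 48.2 UPM in ND and 62.1 UPM in HFD. In B precursor-like cells the ratio was -1.43 (-2.70 to -0.37), on 25 and 10 UMIs. Mesenchymal-like cells had 129 UPM in ND and 95.3 UPM in HFD, a log2 ratio of -0.43 (-0.60 to -0.27).

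**Figure D2:**
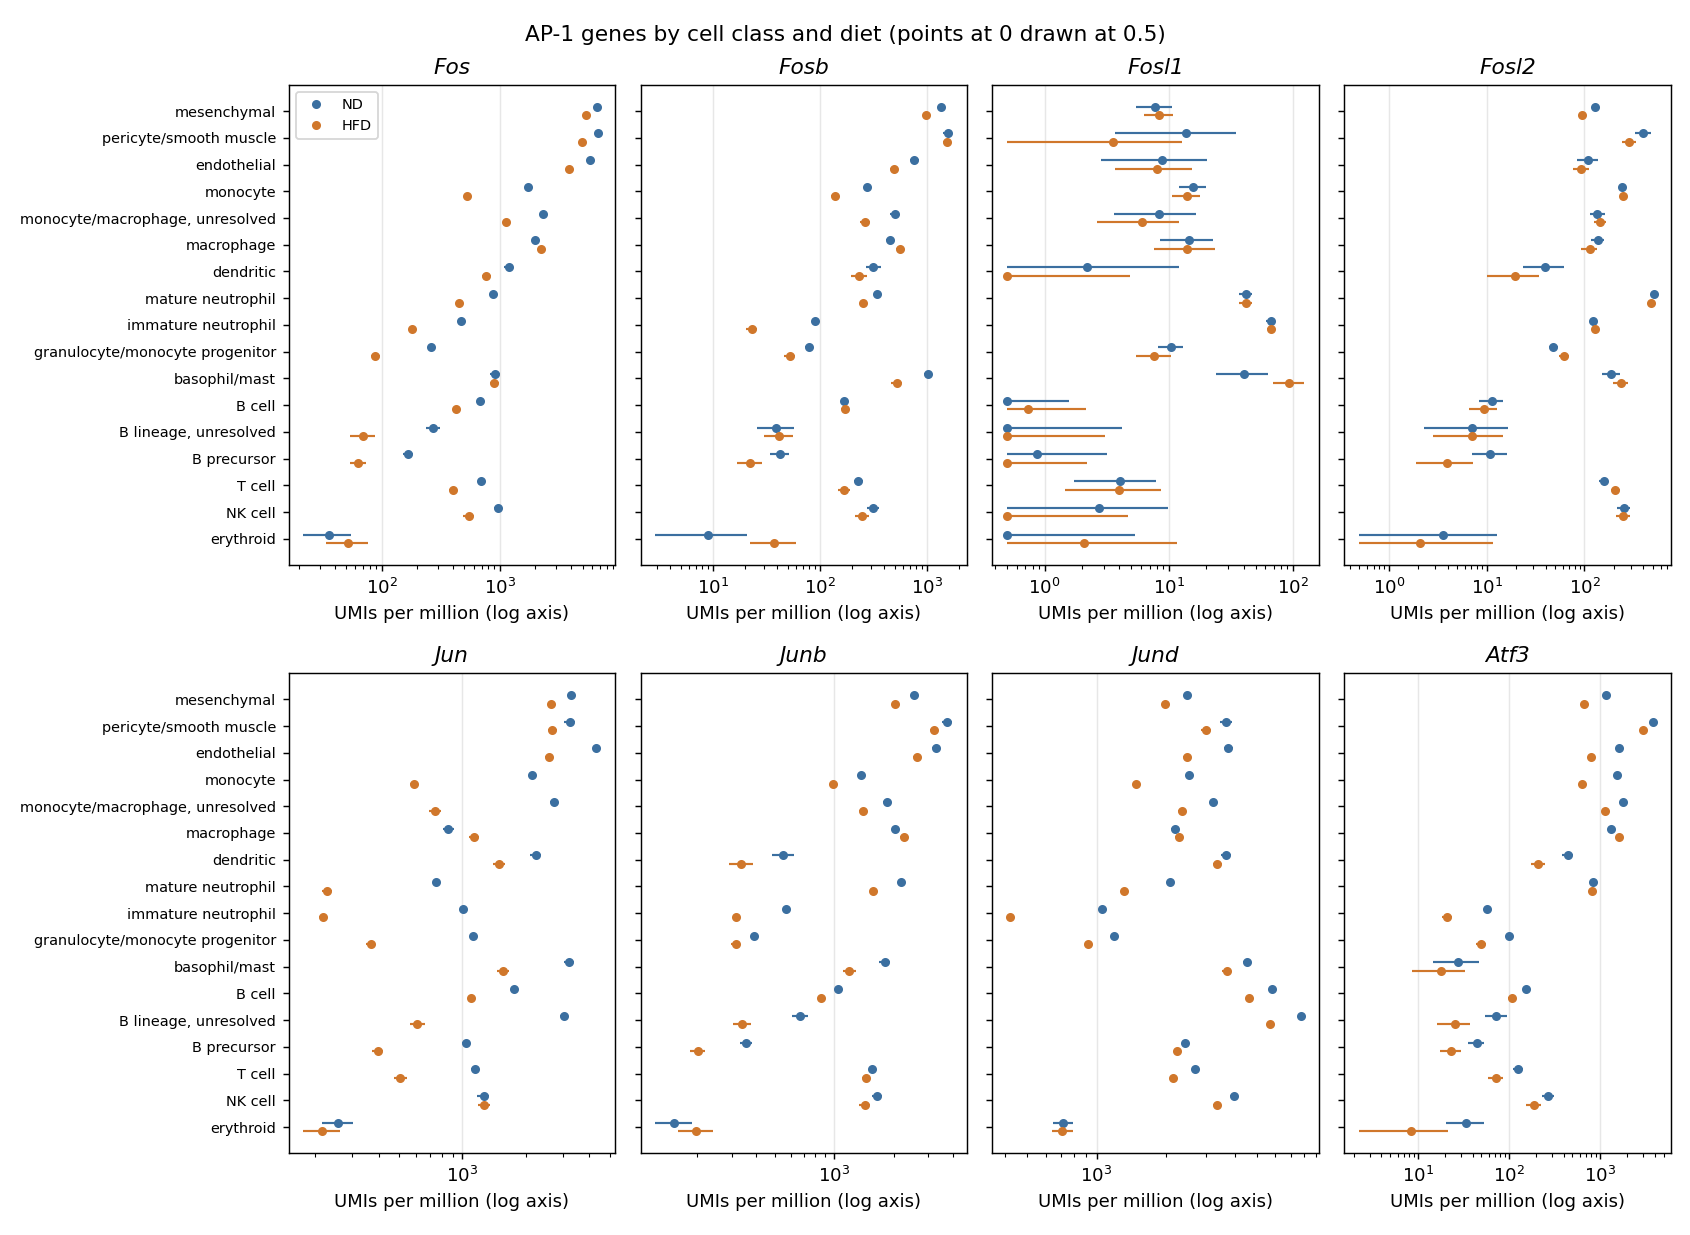
UPM on a log axis of each AP-1 gene by cell class, blue for ND and orange for HFD, with lines for the exact 95% Poisson interval (counting error only). In ND, Fos, Fosb, Junb and Atf3 are highest in pericyte/smooth muscle-like cells, Jun in endothelial-like cells, Jund in the unresolved B lineage and Fosl2 in mature neutrophil-like cells at 515 UPM.

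Jun, the main transactivating partner of Fos, had the lowest median ratio of the 8 genes. In mature neutrophil-like cells it was at 750.3 UPM (729 to 772.1) in ND and 227 UPM (215 to 239) in HFD, a log2 ratio of -1.73 (-1.81 to -1.64). Immature neutrophil-like cells had 1003 UPM in ND and 218 UPM in HFD, a log2 ratio of -2.20 (-2.27 to -2.14). Monocyte-like cells had 2144 UPM in ND and 586 UPM in HFD, a log2 ratio of -1.87 (-1.94 to -1.81). In HFD both neutrophil classes thus lay within the interval of erythroid-like cells, 215 UPM (176 to 261). Granulocyte/monocyte progenitor-like cells had 1118 UPM in ND and 366 UPM in HFD, and basophil/mast-like cells 3208 UPM in ND and 1562 UPM in HFD.

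In the unresolved B lineage Jun was at 3021 UPM in ND and 611 UPM in HFD, a log2 ratio of -2.30 (-2.44 to -2.17). The ratio was -1.39 (-1.50 to -1.28) in B precursor-like and -0.68 (-0.73 to -0.63) in B cell-like cells. T cell-like cells had 1146 UPM in ND and 507 UPM in HFD, a log2 ratio of -1.18 (-1.30 to -1.06). NK cell-like cells, with 1258 UPM (1178 to 1342) in ND and 1267 UPM (1181 to 1358) in HFD, were the lymphoid class without a difference beyond counting error. Among stromal and vascular cells, mesenchymal-like cells had 3264 UPM in ND and 2618 UPM in HFD, a log2 ratio of -0.32 (-0.35 to -0.29). Endothelial-like cells had 4314 UPM in ND and 2568 UPM in HFD, a log2 ratio of -0.75 (-0.83 to -0.67).

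Junb, which transactivates less than Jun, had ratios nearer 0. In ND it was at 3731 UPM in pericyte/smooth muscle-like, 3278 UPM in endothelial-like and 2190 UPM in mature neutrophil-like cells. Mature neutrophil-like cells had 1576 UPM in HFD, a log2 ratio of -0.47 (-0.51 to -0.44). Immature neutrophil-like cells had 568 UPM in ND and 317 UPM in HFD, a log2 ratio of -0.84 (-0.90 to -0.78).

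Jund, the JUN gene with the steadiest expression in resting cells, was highest in ND in the unresolved B lineage (7767 UPM) and B cell-like cells (5785 UPM). B precursor-like cells were lower, at 2425 UPM in ND and 2239 UPM in HFD. In the unresolved B lineage, where Jun had its lowest ratio, Jund was at 5685 UPM in HFD, a log2 ratio of -0.45 (-0.50 to -0.40). Immature neutrophil-like cells had 1053 UPM in ND and 421 UPM in HFD, a log2 ratio of -1.32 (-1.37 to -1.27). Mature neutrophil-like cells had 2091 UPM in ND and 1313 UPM in HFD and monocyte-like cells 2529 UPM in ND and 1479 UPM in HFD, with log2 ratios of -0.67 (-0.71 to -0.63) and -0.77 (-0.82 to -0.73).

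Atf3, a stress-induced gene whose protein can repress AP-1 sites, was at 3867 UPM in pericyte/smooth muscle-like cells of ND (30 cells), above every other class. Monocyte-like cells had 1529 UPM (1493 to 1565) in ND and 632 UPM (609 to 656) in HFD, a log2 ratio of -1.27 (-1.34 to -1.21). In mesenchymal-like cells Atf3 was the one member past 1.5-fold, with 1173 UPM in ND and 676 UPM in HFD, a log2 ratio of -0.79 (-0.85 to -0.74). Endothelial-like cells had 1610 UPM in ND and 800.0 UPM in HFD, a log2 ratio of -1.01 (-1.14 to -0.87). Mature neutrophil-like cells were unlike these, with 836 UPM in ND and 822 UPM in HFD and a log2 ratio of -0.03 (-0.08 to 0.03), while immature neutrophil-like cells had 58.2 UPM in ND and 21.0 UPM in HFD.

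By class, 6 of 8 members were lower in immature neutrophil-like cells, where 10.5% of all genes were, and 3 of 8 in mature neutrophil-like cells (background 8.84%), namely Fos, Jun and Jund. Monocyte-like cells had 5 of 8 (6.54%) and the unresolved monocyte/macrophage cluster 4 of 7 (9.73%). Granulocyte/monocyte progenitor-like cells had 4 of 8 (6.04%), basophil/mast-like cells 3 of 8 (10.3%) and dendritic-like cells 4 of 7 (9.8%). Fosb in granulocyte/monocyte progenitor-like (-0.60) and Junb in basophil/mast-like cells (-0.60) were just past 1.5-fold. The dendritic-like count holds Fosl2, on 18 and 12 UMIs, with a log2 ratio of -0.99 (-2.19 to 0.13). It leaves out Jun, just short of 1.5-fold at -0.58 (-0.71 to -0.45). In the lymphoid lineages the count was 2 of 7 in B cell-like (6.28%), 6 of 7 in B precursor-like (6.91%), 4 of 6 in unresolved B lineage (9.34%), 3 of 7 in T cell-like (8.36%) and 1 of 7 in NK cell-like cells (8.21%). Endothelial-like cells had 5 of 7 (9.73%), mesenchymal-like cells 1 of 8 (5.78%), erythroid-like cells 1 of 6 (15.2%) and pericyte/smooth muscle-like cells 0 of 7 (12.9%). In endothelial-like cells Fos (-0.61), Fosb (-0.64) and Jund (-0.60) were just past 1.5-fold. In B precursor-like cells the call was lost at resolution 0.25 for Fos (0.12), Fosb (0.045), Fosl2 (-0.16) and Junb (-0.415), and the first 2 turned in direction. With 1 or 0 members lower, the NK cell-like, mesenchymal-like, erythroid-like and pericyte/smooth muscle-like classes gave no result about the members by this count.

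Macrophage-like cells (92 in ND and 91 in HFD, led by C1qa, C1qb and C1qc) had 0 of 8 members lower, a count that says nothing about the members against a background of 7.89%. No ratio was past 1.5-fold, and the median of the 8 was 0.16 against 0.03 over all genes of the class. Jun was at 856 UPM (805 to 909) in ND and 1134 UPM (1069 to 1202) in HFD, a log2 ratio of 0.41 (0.28 to 0.53). Atf3 was at 1309 UPM in ND and 1606 UPM in HFD, a log2 ratio of 0.29 (0.19 to 0.39), and Fos at 1976 UPM in ND and 2224 UPM in HFD, a log2 ratio of 0.17 (0.09 to 0.25). These directions depended on how the cells were grouped. With early-response genes kept in the clustering the ratio was 0.01 for Jun, -0.04 for Atf3 and -0.18 for Fos, and at resolution 0.25 it was -0.86, -0.18 and -0.41. With cells thinned to 1000 UMIs Fos was at -0.22. The difference from monocyte-like cells was not tested.

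Within the mature neutrophil-like class, Jun was lower in HFD in each cluster. It was at 1079 UPM in ND and 277 UPM in HFD in the cluster led by Retnlg and Ccl6, at 502 UPM in ND and 124 UPM in HFD in that led by Cstdc4 and Stfa2l1, and at 688 UPM in ND and 357 UPM in HFD in that led by Acod1 and Il1b. The log2 ratios were -1.96, -2.01 and -0.94. In the same order, those of Fos were -1.35, -0.73 and -0.27 and those of Jund -0.75, -0.82 and -0.28. Fos and Jund were thus within 1.5-fold in the cluster led by Acod1, where Fosb was at 0.20 (0.03 to 0.36). Atf3 was at 1666 UPM in ND and 1756 UPM in HFD in the Acod1 cluster, and its ratios were 0.06, 0.08 and 0.08 in the same order. Among immature neutrophil clusters, that led by Retnlg and Ltf had Jun at 945 UPM in ND and 119.9 UPM in HFD, a log2 ratio of -2.98. The Jun ratio was -1.95 in that led by Camp and Ngp and -1.91 in that led by Camp and Chil3. The Fos ratios were -2.12, -1.03 and -0.22 in the same order. In the B cell-like class, the cluster led by Iglc2 had a Jun ratio of -0.53 and a Fos ratio of -1.07, and that led by H2-Eb1 had -1.33 and -0.26, so that the order of both genes was opposite.

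The mesenchymal-like cells were divided into 4 finer clusters with at least 5 markers of a periosteal cell type each. Fos was at 8000 UPM in ND and 6190 UPM in HFD in tenocyte-like cells (106 ND and 165 HFD cells), and at 6591 UPM in ND and 5698 UPM in HFD in fibroblast progenitor-like cells (219 ND and 329 HFD cells). Osteogenic-like cells (60 ND and 130 HFD cells), led by Mmp13 and Postn, had 5260 UPM in ND and 4043 UPM in HFD of Fos. Their Atf3 was at 938 UPM in ND and 273 UPM in HFD, a log2 ratio of -1.78 (-1.99 to -1.57). The Atf3 ratio was -1.15 (-1.34 to -0.95) in tenocyte-like, -0.62 (-0.68 to -0.55) in fibroblast progenitor-like and 0.08 (-0.18 to 0.34) in chondrocyte-like cells (22 ND and 41 HFD cells). The Jun ratio was -0.63 (-0.72 to -0.54) in osteogenic-like, -0.42 (-0.48 to -0.37) in tenocyte-like, -0.27 (-0.42 to -0.12) in chondrocyte-like and -0.12 (-0.17 to -0.08) in fibroblast progenitor-like cells. The differences between these clusters were not tested.

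**Figure D3:**
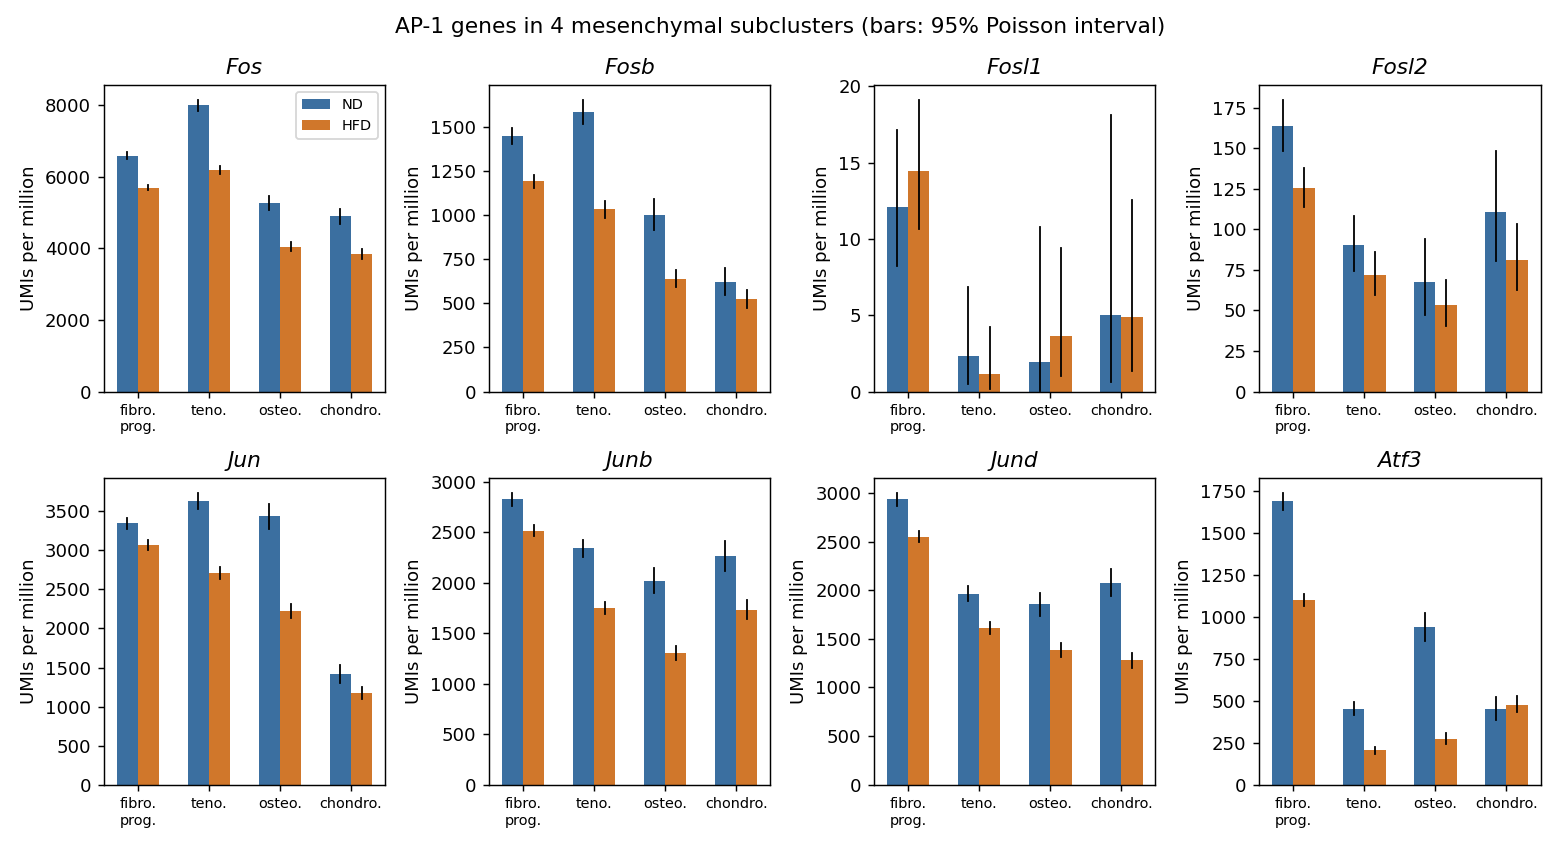
UPM of each AP-1 gene in 4 finer mesenchymal clusters, blue bars for ND and orange for HFD, each axis from 0, with black lines for the exact 95% Poisson interval. The orange bar is below the blue one for Fos, Fosb, Jun, Junb and Jund in all 4 clusters, and the Atf3 bars of the osteogenic-like cluster stand at 938 and 273 UPM.

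To compare cells at 1 depth, each cell was thinned to 1000 UMIs, and 55 ND and 51 HFD cells with fewer were left out. The 8 genes together had a median of 17 UMIs per mesenchymal-like cell in ND and 12 in HFD. In mature neutrophil-like cells the median was 6 and 5, the 90th percentile 16 and 11 and the 99th 37 and 20, so that the upper end differed more than the middle. Cells with 20 or more AP-1 UMIs made up 6.98% of ND and 1.21% of HFD mature neutrophil-like cells. In monocyte-like cells the medians were 6 and 3, and 16.3% and 1.96% of cells had 20 or more. A Jun UMI was found in 25.5% of ND and 13.7% of HFD mature neutrophil-like cells at this depth, and without thinning in 44.1% and 31.4%. In erythroid-like cells, where the summed AP-1 level was lowest, the thinned shares were 9.09% and 7.69%, from only 33 ND and 26 HFD cells. The median depths in ND were 3346 UMIs for mature neutrophil-like and 8589 UMIs for erythroid-like cells. The 8 mesenchymal markers, which neutrophils should lack, were at 71.0 UPM in ND and 154 UPM in HFD mature neutrophil-like cells. Among the named classes other than the mesenchymal-like one, these markers were lower in HFD only in monocyte-like cells, at 102 and 45.9 UPM, and in granulocyte/monocyte progenitor-like cells, at 62.5 and 39.6 UPM. The part of RNA from other cells in the AP-1 values was not tested.

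**Figure D4:**
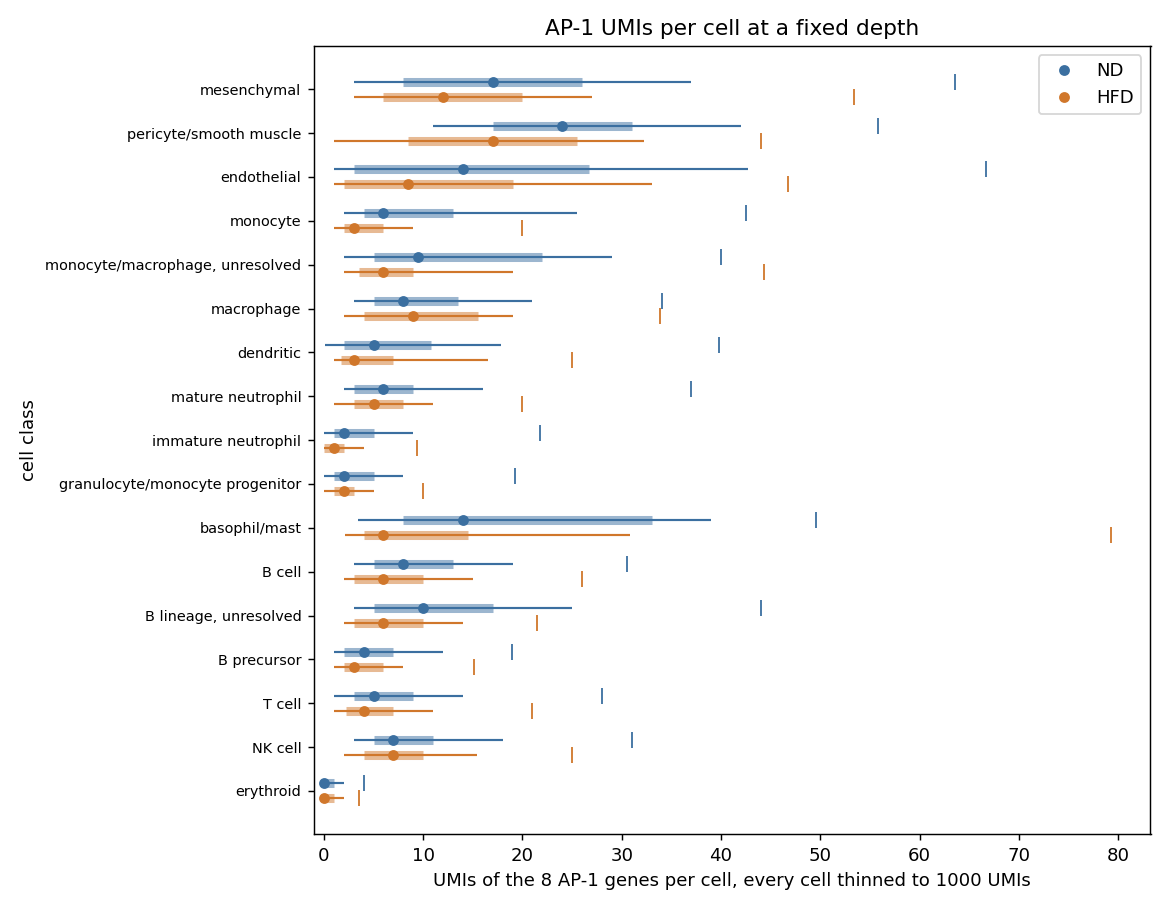
UMIs of the 8 AP-1 genes together per cell after thinning every cell to 1000 UMIs, by class, blue for ND and orange for HFD. Dots are medians, thick lines the 25th to 75th and thin lines the 10th to 90th percentile, and ticks the 99th, which stand at 37 in ND and 20 in HFD for mature neutrophil-like cells.

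A Jun UMI was found more often in cells with a Fos UMI than in cells without one. Among ND mature neutrophil-like cells at 1000 UMIs, 47.5% of cells with a Fos UMI also had a Jun UMI, against 16.5% of cells without one, and in HFD the shares were 17.6% and 12.01%. In monocyte-like cells they were 72.3% and 27.0% in ND and 36.4% and 15.6% in HFD. In mesenchymal-like cells they were 86.5% and 51.6% in ND and 83.0% and 51.3% in HFD. Over cells, Pearson's r of log2(UMI + 1) for both genes was 0.56 in ND (1677 cells) and 0.15 in HFD (1568 cells) for mature neutrophil-like cells, and 0.55 and 0.47 for mesenchymal-like cells. These values describe cells of 1 library each, and the part of the level of Jun in them was not tested.

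Other early-response genes, which share upstream signals with AP-1, were lower for 11 of 23 in monocyte-like cells and 7 of 25 in mature neutrophil-like cells, with 1 higher. Over all genes, 6.54% and 8.84% were lower in these classes, and 5.58% were higher in mature neutrophil-like cells. Egr1, a growth-factor-induced transcription factor, was at 184 UPM in ND and 34.7 UPM in HFD in monocyte-like cells, and Rhob, a small GTPase, at 512 UPM in ND and 118 UPM in HFD. Heat-shock genes, which respond to protein stress, were lower for 7 of 10 in monocyte-like (6.54% of all genes), 8 of 10 in immature neutrophil-like (10.5%) and 10 of 10 in unresolved B lineage cells (9.34%). In NK cell-like and macrophage-like cells 0 of 10 were lower (8.21% and 7.89%) and 2 were higher in each (10.4% and 9.92%). These last counts were near the shares over all genes and gave no result about the heat-shock genes. The summed level of the heat-shock genes was 9259 UPM in ND and 4419 UPM in HFD monocyte-like cells, and 4798 and 5733 UPM in macrophage-like cells. Hspa1a, an inducible Hsp70 gene, was at 2131 UPM in ND and 538 UPM in HFD in monocyte-like cells and at 595 UPM in ND and 911 UPM in HFD in macrophage-like cells. Over the 17 classes, which share both libraries, r between the log2 ratios of the summed AP-1 and the summed heat-shock genes was 0.71. The part of stress during handling in the AP-1 values was not tested.

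**Figure D5:**
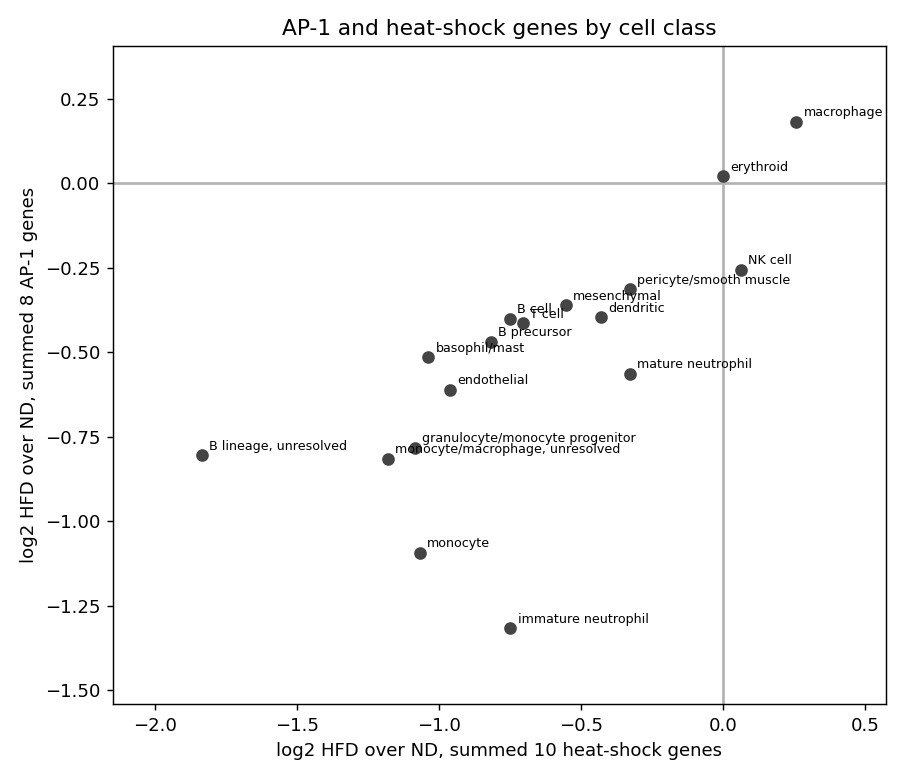
Log2 ratio, HFD over ND, of the summed AP-1 genes (vertical) against that of the summed heat-shock genes (horizontal), 1 point per cell class. Most classes lie below 0 on both axes, and macrophage-like cells lie above 0 on the heat-shock axis, where their sums are 4798 UPM in ND and 5733 UPM in HFD.

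The kinases and factors that induce AP-1 genes were mostly within 1.5-fold, as were most genes of these classes. Of 22 upstream regulators, 1 was lower and 0 were higher in mature neutrophil-like cells, where 8.84% of all genes were lower and 5.58% higher. In monocyte-like cells 1 was lower and 1 higher, against 6.54% and 4.72% of all genes. These counts were near the shares over all genes and gave no result about the regulators. Map3k8, a MAP kinase kinase kinase, was at 93.0 UPM in ND and 44.9 UPM in HFD in mature neutrophil-like and 124 UPM in ND and 58.7 UPM in HFD in monocyte-like cells. Of 17 other bZIP genes, 1 was lower in mesenchymal-like cells (5.78% of all genes) and 4 in monocyte-like cells (6.54%). Of 20 known AP-1 targets in mesenchymal-like cells, 4 were lower and 3 higher, where 5.78% of all genes were lower and 8.04% higher. Among the lower ones was Il1b, an interleukin gene that is also a marker of the mature neutrophil-like class, at 146 UPM in ND and 63.1 UPM in HFD. Spp1, which encodes osteopontin, was at 369 UPM in ND and 2316 UPM in HFD, and the matrix metalloproteinase genes Mmp13 and Mmp3 were at 179.7 UPM in ND and 449.6 UPM in HFD and at 17.8 UPM in ND and 47.5 UPM in HFD. Osteogenic-like cells, led by Mmp13, were 60 of 409 ND and 130 of 667 HFD mesenchymal-like cells. The part of this make-up in the target values was not tested. Immature neutrophil-like cells had 5 of 17 targets lower (10.5% of all genes) and 5 higher (3.81%). Mature neutrophil-like cells had 3 of 13 lower (8.84%) and 3 higher (5.58%), and endothelial-like cells 3 of 10 lower (9.73%) and 3 higher (10.2%). In monocyte-like cells 7 of 15 targets were lower (6.54% of all genes) and 0 higher (4.72%). There Ccl2, a monocyte chemokine, was at 471 UPM in ND and 116 UPM in HFD. Of 10 reference genes, 0 were lower in mature neutrophil-like, monocyte-like and mesenchymal-like cells, and 1 was higher in the last, counts near the shares over all genes.

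Over 34 combinations of class and library, the levels of Fos and Fosb (log2(UPM + 1)) had a Pearson's r of 0.93, Fosb and Junb 0.90, Fos and Atf3 0.83 and Fos and Jun 0.77, whereas Fos and Jund had 0.39. These points share libraries, and r is given as a description. Outside the gene lists, the genes most like Fos were Sertad1 (r = 0.90), Pttg1ip (0.89), Exoc6b (0.89), Ptms (0.89) and Bmpr2 (0.86). Those most like Fosl2 were Nfil3 (0.92), Zyx (0.90) and Nab1 (0.88), those most like Jun were Inf2 (0.79), Trio (0.78) and Zbtb20 (0.75), and those most like Jund were Rbbp6 (0.85), Cirbp (0.85) and Arhgap17 (0.84).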

How the data were processed

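Periosteal cells of ND and HFD mice were profiled by droplet single-cell RNA-seq after a collagenase and dispase digestion of dissected femurs and tibias. The authors processed the reads with Cell Ranger 6.0.1 on build mm10 (submitters' processing notes), and the deposited matrices hold raw UMI counts per gene and barcode. Barcodes with more than 500 and fewer than 8000 genes and under 20% mitochondrial UMIs were kept. Cells of both diets were clustered jointly in Seurat 5.3.0 and sctransform 0.4.2 in R 4.3.3, with cell cycle scores regressed, 30 components and resolution 0.5, without the AP-1, other early-response and heat-shock genes. Classes were named from fixed marker lists, but the naming limits were set after clusters had been seen. Doublets were kept, since Scrublet marked only 10 ND and 11 HFD cells. Whether it missed doublets or few were left in the matrices was not tested.

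Counts were summed per class and library and divided by all UMIs of the class. Log2 ratios were taken with 0.5 added to each count and given exact conditional binomial intervals, and the calculation was tested on simulated data. With 1 library per diet, no p-value was computed. The members and gene lists were chosen with earlier results of these data known. The named genes were every member in every class, at most 4 examples per list and class (those furthest from 0 among genes with at least 200 UMIs), and the genes most like a member. TGACG was added to the motifs after the sequences had been seen. Promoter windows are from RefSeq, and 7 of 8 members matched. Alternatives in filters, scaling, weighting, depth and clustering were computed, 3 of them chosen after the data were seen.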

Additional observations from a re-analysis of the deposited data

Results flagged for a closer look

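Several members were higher in HFD in a class, with an interval above 0, while another class was lower by 1.5-fold or more. In macrophage-like cells the log2 ratio was 0.17 for Fos, 0.30 for Fosb, 0.41 for Jun, 0.14 for Junb and 0.29 for Atf3. The lowest ratios of the same genes were -1.97 for Fos, -2.30 for Jun and -0.98 for Junb in the unresolved B lineage, -1.97 for Fosb in immature neutrophil-like and -1.89 for Atf3 in erythroid-like cells, the last on 19 and 4 UMIs with an interval of -4.04 to -0.43. Fosl2 was at 0.40 in T cell-like and 0.36 in granulocyte/monocyte progenitor-like cells and at -1.43 in B precursor-like cells. Fosb was at 1.98 in erythroid-like cells, on 5 and 18 UMIs, and at -0.16 as a mean over cells. Mesenchymal markers in these cells were at 16.1 UPM in ND and 1748 UPM in HFD. The differences between classes were not tested.

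Members were also counted outside the classes. Barcodes left out by the filter held 3267 UPM of the 8 genes together in ND and 3302 UPM in HFD. Clusters that stayed unnamed, in which markers of nerve sheath or of several lineages were mixed, held 10568 UPM in ND and 11903 UPM in HFD. In these unnamed clusters Fos was higher in HFD, at 1461 UPM in ND and 2370 UPM in HFD, a log2 ratio of 0.70 (0.58 to 0.82), and so was Fosb, at 678 UPM in ND and 1090 UPM in HFD, a log2 ratio of 0.69 (0.51 to 0.87).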

How the results depend on the processing

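No paired analysis was possible because each diet is 1 pooled library. Of 124 combinations 52 were lower, a share of 41.9%. The alternatives tested 97 to 126 combinations and gave shares of 34.0% (resolution 0.25, 33 of 97) to 44.4% (scaled by the median of all genes, 55 of 124). The count of higher combinations, 2 in the report, was 3 (under 5% mitochondrial UMIs, scaled by the median of all genes), 1 (more than 200 detected genes, early-response genes kept in clustering, resolution 0.25, highest 5% of doublet scores left out), 0 (at least 100 UMIs), 5 (cells between the quartiles of their class's depth) and 4 (cells with 2000 to 6000 UMIs). The last 2 and the doublet score limit were chosen after seeing the data. Jun in mature neutrophil-like cells was -1.97 with more than 200 genes, -1.63 as a mean over cells, -2.04 with early-response genes kept, -1.92 and -1.88 at resolutions 0.25 and 1, -1.45 at middle depth and -1.63 at 2000 to 6000 UMIs. Fos in mesenchymal-like cells was -0.41 thinned, -0.41 as a mean over cells, -0.37 scaled by the median of all genes, -0.35 without the highest doublet scores, -0.41 at middle depth and -0.57 at 2000 to 6000 UMIs. Jun in monocyte-like cells was -1.63 at resolution 0.25, -1.96 at middle depth and -5.98 at 2000 to 6000 UMIs, where 7 ND and 5 HFD cells were left. Jun in macrophage-like cells was 0.015 with early-response genes kept, -0.86 at resolution 0.25, 0.27 at middle depth and -0.47 at 2000 to 6000 UMIs.

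Of the ratios past 1.5-fold, directions turned for Fos (0.12) and Fosb (0.045) in B precursor-like cells at resolution 0.25, for Fosb in endothelial-like (0.046) and Atf3 in dendritic-like cells (0.70) at middle depth, and for Fosb in erythroid-like cells (-0.16) as a mean over cells. At 2000 to 6000 UMIs they turned for Fos (1.25) and Jun (0.27) in progenitor-like cells, with 21 ND and 11 HFD cells, and for Atf3 in the unresolved monocyte/macrophage cluster (0.195). In macrophage-like cells, where no ratio was past 1.5-fold, the 6 members above 0 were all below 0 at resolution 0.25, from -0.86 (Jun) to -0.15 (Junb), and Fos was also below 0 thinned (-0.22), as a mean over cells (-0.14), with early-response genes kept (-0.18) and at 2000 to 6000 UMIs (-0.90). In ND, the log2 ratio of Fos between mesenchymal-like and mature neutrophil-like cells was 2.94, with 3.16 thinned and 3.165 as a mean over cells. That of Jund between B cell-like and mature neutrophil-like cells was 1.47, with 1.53 and 1.51, and that of Fosl2 between mature neutrophil-like and mesenchymal-like cells 2.00, with 2.14 as a mean over cells. The causes were not tested. Replicates could not be left out, since the matrices do not tell them apart, and intervals reflect counted UMIs and not the spread between mice.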
